A study of Cucumis melo with 12 samples.

Results

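The lipoxygenase gene *LOX* (MELO3C014630) and the allene oxide synthase gene *AOS* (MELO3C018413) of melon (*Cucumis melo*) were followed through lists of gene values from seeds and radicles. They are 2 of 3256 genes on any list and were chosen by identifier. Their names are those the study gave them. The authors picked both from genes that differed between their own groups, so the values below are a description and no test was applied to them. The data came from 12 libraries in 6 groups of 2, which the study calls biological duplicates. In each tissue the groups were a mock treatment with water, a low dose and a high dose of *Bacillus velezensis* FZB42, a plant-associated bacterium, at 7 and 8 log10 colony-forming units per ml. Surface-sterilized seeds were immersed for 90 min. They were either taken as seeds (after the treatment, in the study's account) or left to germinate for their radicle, the embryonic root. Radicles were from day 5, which the study counts from the seed treatment. The labels name no cultivar or genotype for the plants, whereas the study's methods name the seeds as var. Rochet Panal.

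Both enzymes belong to the oxylipin pathway. Lipoxygenases add oxygen to polyunsaturated fatty acids and give fatty acid hydroperoxides, which several enzyme families then compete for. Allene oxide synthase is one of these: it turns a hydroperoxide of linolenic acid into an unstable allene oxide, from which allene oxide cyclase and later steps make jasmonic acid. Jasmonates are known in plants for defence against chewing animals and necrotrophic fungi and for slowing the growth of roots. Lipoxygenases are a family whose members differ in the carbon they oxidize, and not every member feeds jasmonic acid synthesis. The type of MELO3C014630 is not given, so whether it lies on the same branch as *AOS* is not known here.

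Each list gave 1 value per gene and group, in which the authors had combined the libraries, so no spread between libraries could be computed and no difference below could be set against one. The values are named FPKM but many genes share identical low values, and they were read as a relative signal whose scale and depth in reads are not known. Only selected genes were listed: 3147 for mock, 291 for low-dose and 3106 for high-dose radicles, and 153, 131 and 32 for the same treatments of seeds. In both tissues the mock list was exactly the union of both dose lists. Absence from a list is therefore no value, and was not read as a value of 0. None of the 3256 identifiers occurred in the RefSeq gene table used here, so the tissue labels could not be checked against marker genes, and the gene positions and other genes of the jasmonate pathway were not analysed here.

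*LOX* and *AOS* never appeared on the same list. *LOX* was on all 3 radicle lists and on 0 seed lists, whereas *AOS* was on all 3 seed lists and on 0 radicle lists. Of the 3256 genes, 44 were listed in both tissues, and neither *LOX* nor *AOS* was one of them. A tissue difference cannot be read from this, since a gene was listed only where it was on at least 1 dose list of that tissue. The values of both genes were not compared with each other, because transcript lengths were not used here and the lists of each tissue hold different genes.

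**Figure D1:**
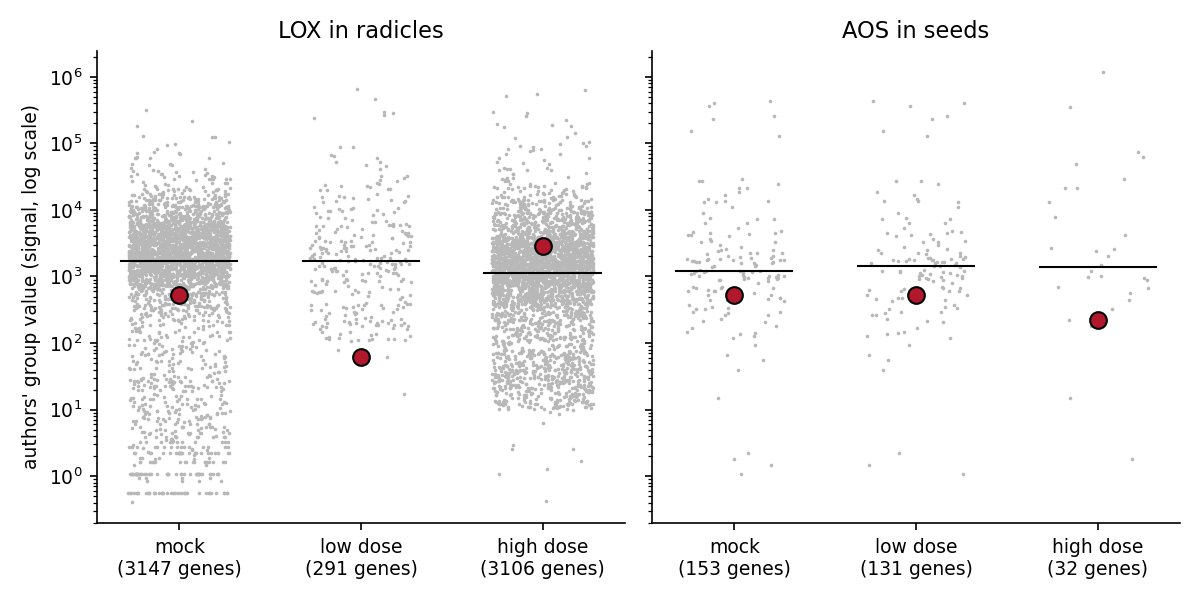
Values of *LOX* in the radicle lists (left) and *AOS* in the seed lists (right), as large red points, on a log axis of the authors' group value. Grey points are all other listed genes above 0, horizontal lines are the list medians, and genes listed at 0 are not drawn. *LOX* stood at 519.7 (mock), 62.4 (low dose) and 2859 (high dose), and *AOS* at 521.1 (low dose) and 220.6 (high dose). The point for *AOS* over mock seeds, also 521.1, is a copy shared with the low-dose list, as are all 131 values common to these lists, and does not show that low-dose and mock seeds were alike.

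In radicles, *LOX* was lower than mock after the low dose and higher than mock after the high dose. Its value was 519.7 in mock radicles, 62.4 in low-dose radicles and 2859 in high-dose radicles. The order of the groups was thus low dose, mock, high dose, and not the order of the doses. Whether any neighbours in this order differ beyond the spread of their libraries is not known.

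The place of *LOX* within each list moved in the same way. In mock radicles it held rank 2277 of 3147, counted from the highest value, and 27.6% of listed genes were lower. In low-dose radicles it held rank 288 of 291, with only 3 genes below it, and its value was 3.68% of the list median of 1696. In high-dose radicles it held rank 726 of 3106, with 76.6% of listed genes lower, and its value was 2.56 times the list median of 1115. *LOX* therefore stood in the lowest part of the low-dose list and well above the median of the high-dose list. Rank within a list needs no common scale between lists, but it depends on which genes were listed. Among the 250 genes found on every radicle list, *LOX* held rank 153 in mock, 248 in low-dose and 91 in high-dose radicles.

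*LOX* was not the lowest gene above 0 on any radicle list. In mock radicles the lowest value that recurred in over 10 genes was 0.549, shared by 37 genes, and *LOX* was 946 times that value. At the low dose the lowest value above 0 was 16.9, and *LOX* was 3.68 times that value. The lowest value above 0 was 0.414 on the mock list and 0.426 on the high-dose list. Each is the lowest among genes selected by the authors, so none of them gives the detection limit of the libraries. The gene next below *LOX* on the low-dose list was at 49.0 and the gene next above at 78.3.

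Against mock, low-dose radicles had 12.01% of the *LOX* value, 62.4 against 519.7, a log2 ratio of -3.04 after 1 was added to both values. High-dose radicles had 5.50 times the mock value, 2859 against 519.7, a log2 ratio of 2.46. Both comparisons share the mock value. With 1 added, 23.7% of the low-dose list was below mock by over 1 log2 unit, and *LOX* was among these genes. Only 6 of the 291 genes had a lower ratio than *LOX*, and the 70 genes below mock had a median of -1.33. On the high-dose list 31.3% of genes were above mock by over 1 log2 unit, *LOX* again among them. Here 587 of the 3106 genes had a higher ratio than *LOX*, and the 1209 genes above mock had a median of 2.35. *LOX* was thus far out among the lowered genes of the low-dose list and near the middle of the raised genes of the high-dose list. Both lists hold genes selected by the authors, so these shares are backgrounds of the lists and not of the genome. The size of both ratios moved with the scaling between lists: the low-dose ratio was -4.65, -4.60 or -4.45 by median ratio, quantile or shared-sum scaling, and the high-dose ratio 3.24, 2.95 or 1.40 by the same scalings in turn. The sign of each was the same under all of them.

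**Figure D2:**
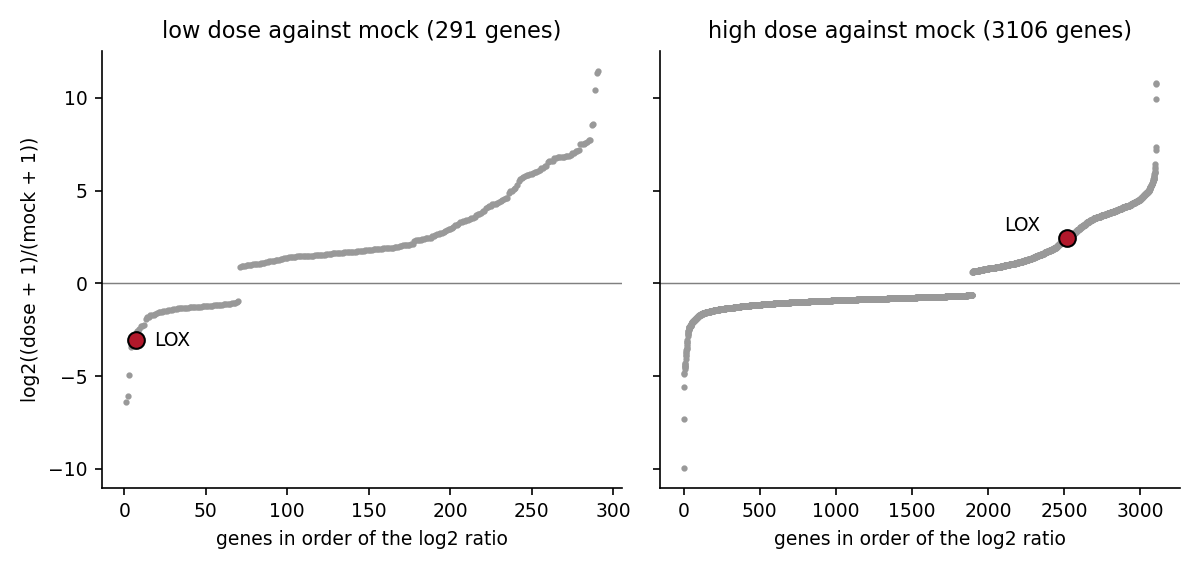
All genes of the low-dose (left) and high-dose (right) radicle list in order of their log2 ratio to mock, with 1 added to both values; each grey point is a gene and the red point is *LOX*. *LOX* stood at -3.04, with 6 of 291 genes lower, and at 2.46, with 587 of 3106 genes higher.

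Level bore on this placing. Genes listed at or near 0 in mock can have very large ratios, so *LOX* was also set beside the genes whose mock value lay within a factor of 2 of its own, from 260 to 1039, a window chosen after the values had been seen. On the low-dose list 51 genes fell in this window, *LOX* included. Of these, 45 were above mock and 6 below, and 1 gene had a lower ratio than *LOX*. On the high-dose list 424 genes fell in the window, of which 159 were above mock and 265 below. Among these, 6 had a higher ratio than *LOX*, whose 2.46 compares with a median of 1.18 over the genes above mock. Beside genes of like mock level, *LOX* thus stood near the lower end of the low-dose list and near the upper end of the high-dose list.

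For *LOX* itself the high and the low dose can be compared without the mock value. *LOX* was listed at 2859 in high-dose radicles and at 62.4 in low-dose radicles, which is 45.8 times the low-dose value and a log2 ratio of 5.49. Across the 250 genes on both dose lists the median ratio was -0.19, and 3 genes, or 1.20%, were higher at the high dose by over 1 log2 unit. *LOX* was the second highest of the 250. The gene above it was the pentatricopeptide repeat gene *PPR* (MELO3C008512), listed at 313.0 in high-dose and at 0 in low-dose radicles; pentatricopeptide repeat proteins bind organelle RNA. The next gene below it, MELO3C023938, had a ratio of 1.83, from 723 in high-dose and 202 in low-dose radicles, and the gene after that 0.92. The middle 90% of the genes lay between -2.13 and 0.53. The distance between *LOX* and the next gene below was thus larger than the whole of that range. The 250 genes are only those the authors listed at both doses, so the range is not that of all genes.

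**Figure D3:**
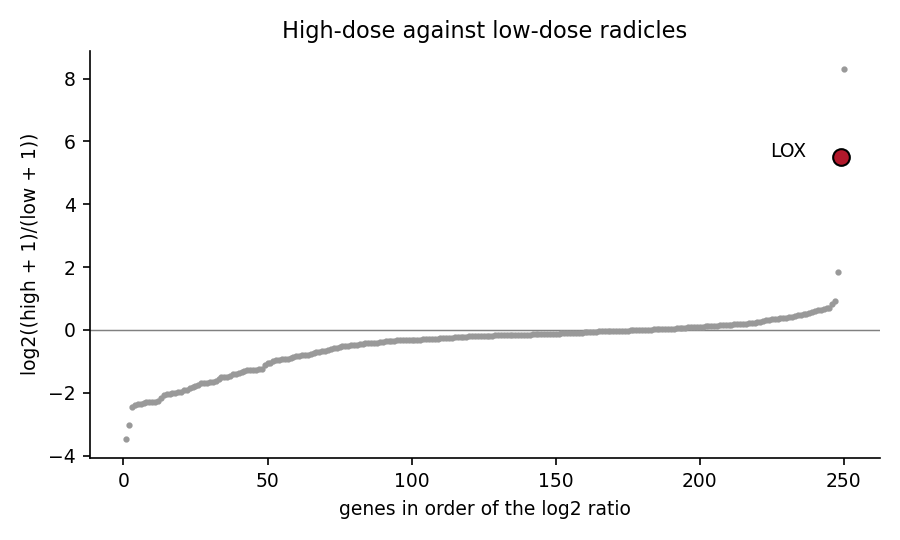
The 250 genes on both radicle dose lists in order of log2((high + 1)/(low + 1)); grey points are genes and the red point is *LOX*. *LOX*, at 5.49, and *PPR*, at 8.29, stood apart from the other genes, which ranged from -3.48 to 1.83.

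Among genes above 0 on every radicle list, none followed *LOX* closely through the radicle groups. Likeness was measured as the distance between genes over both log2 ratios to mock, among the 229 genes above 0 on all 3 radicle lists. The 3 nearest genes were MELO3C018883 at a distance of 3.59, MELO3C015469 at 3.65 and MELO3C017297 at 3.73. As listed, all of them were below mock at both doses: MELO3C018883, for example, was listed at 4767 in mock, 1720 in low-dose and 2786 in high-dose radicles. The median distance from a gene to its own nearest gene was 0.085, and 227 of the 229 genes had a neighbour within 1 log2 unit. *LOX* had the largest distance to its nearest gene of all 229, and the next largest was 1.15. *PPR* was left out of this measure because only genes above 0 on every radicle list were compared. It was listed at 82.7 in mock, 0 in low-dose and 313.0 in high-dose radicles. Its log2 ratios to mock were -6.39 (low dose) and 1.91 (high dose), and the size of the first rests on the added 1. *PPR* thus lay on the same sides of mock as *LOX* at both doses. By these ratios, with 1 added, it would be nearer to *LOX* than the 3 genes named above.

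In seeds, *AOS* stood at 220.6 on the high-dose list and at 521.1 on the low-dose list. The mock seed list gave 521.1 as well, identical to the low-dose value within a relative tolerance of 1e-06. This was not particular to *AOS*: each of the 131 low-dose values and 22 of the 32 high-dose values were identical to the mock list, and the 10 high-dose values that were not, *AOS* among them, belonged to the genes also on the low-dose list. In radicles 0 values were identical to mock, those of *LOX* included. Every value on the mock seed list thus stood on a dose list as well, and mock seeds had no value of their own. Which treatment the value of 521.1 was measured in cannot be told from the lists alone. Neither dose was therefore compared with mock seeds for *AOS*, and the ratio below is one between the dose lists as named. The value of 220.6 stood on the high-dose list alone.

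The high-dose value of *AOS* was 42.3% of the value on the low-dose list, 220.6 against 521.1, a log2 ratio of -1.24. It was -1.94 by median ratio scaling and -2.47 by shared-sum scaling. Quantile normalization over the 10 shared genes gave 0.00, as it must for a gene of the same rank at both doses. The ratio as listed was above 0 for 7 of the 10 genes on both seed dose lists and below 0 for 3, with a median of 0.71. *AOS* had the lowest ratio of the 10, and was the 1 gene, or 10%, that was lower by over 1 log2 unit. The 3 nearest genes by this ratio were MELO3C030130 at -0.76, the lipid-transfer protein gene *NSLTP* (MELO3C009108) at -0.49 and MELO3C027626 at 0.58. MELO3C030130 was listed at 7833 in high-dose and 13281.5 in low-dose seeds, and *NSLTP* at 2564 in high-dose and 3603 in low-dose seeds. A ratio like that of *AOS* was thus not found among these few genes, although the next was within 0.47 log2 units of it.

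**Figure D4:**
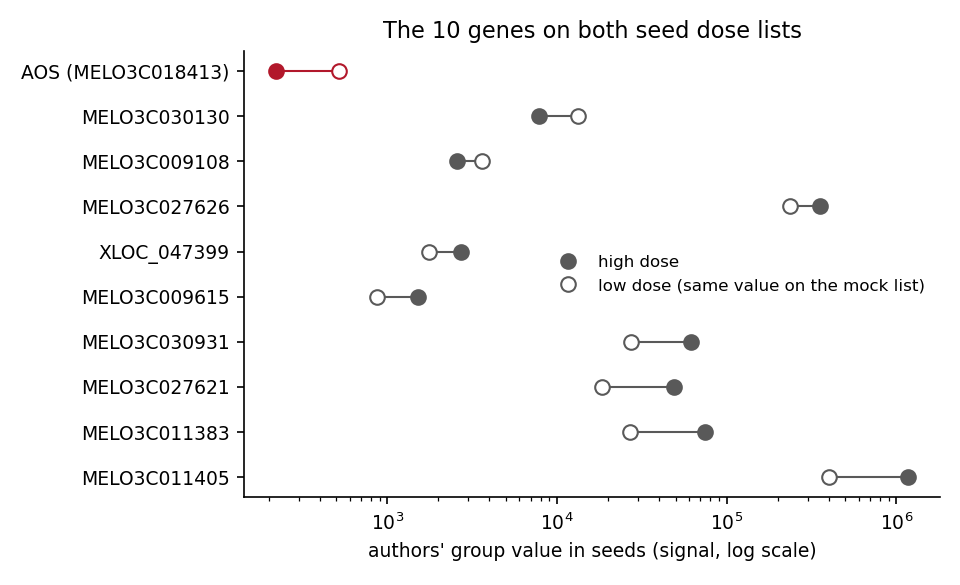
Group values of the 10 genes on both seed dose lists on a log axis, in order of the ratio of high to low dose; filled points are the high dose and open points the low dose, whose values the mock list repeats. *AOS* (red), at 220.6 (high-dose list) and 521.1 (low-dose list), had the lowest value of the 10 on both dose lists and the lowest ratio.

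*AOS* was also low within its lists. It held rank 27 of 32 on the high-dose list, with 5 genes below it, and its value was 16.1% of the list median of 1367. On the low-dose list it held rank 98 of 131, with 25.2% of genes lower, at 36.7% of the list median of 1419. Of the 10 genes on both dose lists it had the lowest value at each dose, and the next lowest gene, MELO3C009615, was at 1511 in high-dose and 869.7 in low-dose seeds. Of these 10 genes, 7 were on a radicle list as well, and *AOS* was not. Because the values are not known to be per transcript length, a low rank does not say that fewer transcripts of *AOS* were present than of its neighbours.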

How the data were processed

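The 6 groups of melon seeds or radicles had 2 sequenced RNA libraries each. Groups were taken from the submitters' labels and doses from the study's methods. The labels name polyadenylated RNA and the methods rRNA-depleted directional libraries. The methods name the melon genome of cv. DHL92 (v4), and Bowtie2 and SAMtools stand in the submitters' processing notes. How the libraries of a group were combined is not given in the sources used here. The deposited values, named FPKM by the authors, were treated as signal of unstated scale, since low values recurred across many genes. Values under 1e-10 were taken as 0. Ratios are log2 with 1 added to both values, for genes that reach 1 in either group compared. Without values per library no test was run, and depth is unknown.

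The 2 members and all lists of genes were chosen with earlier results of these data known. Named genes are the members, the 3 genes most like each by the stated measure, genes next to them in an order, and genes on opposite sides of mock at the radicle doses. *PPR*, MELO3C023938 and MELO3C009615 were named after their values were seen. A planned count of genes with opposite directions at both radicle doses is not given, since both doses share mock, as they do for *LOX*. Such genes, by the values as listed, are named with the flagged result. Pathway genes by description could not be found: 0 of 3256 identifiers matched the RefSeq table of assembly USDA_Cmelo_AY_1.0. Alternatives were other pseudocounts, 3 scalings and other sets of ranked genes. The counting was tested on simulated data from 2671 mock radicle genes, which recovered 100 of 100 raised and 100 of 100 lowered genes. No noise was added to these data, so this checked the code and not the spread between libraries. Python 3.11.15, pandas 2.3.3, numpy 2.4.6 and matplotlib 3.10.9 were used.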

Additional observations from a re-analysis of the deposited data

Results flagged for a closer look

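*LOX* in radicles was singled out because its log2 ratio to mock was -3.04 after the low and 2.46 after the high dose, on opposite sides of mock. It was not alone in this. *PPR*, at -6.39 (low dose, listed at 0, so this size rests on the added 1) and 1.91 (high dose), lay on the same sides. The reverse, above mock at the low and below it at the high dose, was seen for MELO3C032827 (2.04 and -1.44), MELO3C033692 (1.80 and -1.22) and MELO3C030129 (1.44 and -0.95). These sides are those of the values as listed. Median ratio scaling removed log2 amounts of 1.66 (low dose) and -0.79 (high dose). After it MELO3C030129 would no longer be above mock at the low dose, and other genes would come to lie on the sides of *LOX*. How many genes lie on opposite sides after scaling was not counted. The difference between the doses was not tested, since each group has 1 combined value, and both *LOX* ratios share the mock value of 519.7.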

How the results depend on the processing

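No paired analysis was possible because the lists carry no replicate, and for the same reason leaving out each replicate was not run. Log2 values were taken as kept within a factor of 1.5. Pseudocounts of 0.1 and 0 moved none of the 4 log2 ratios past this bound. Median ratio scaling gave *LOX* ratios to mock of 3.24 (high dose) and -4.65 (low dose), and *AOS* -1.94 between the doses. Quantile normalization gave *LOX* -4.60 (low dose), and *AOS* 0.00, which its rank fixes: no shared seed gene had a lower value at either dose. Scaling by the sum of the genes on all lists of a tissue gave *LOX* 1.40 (high dose) and -4.45 (low dose), and *AOS* -2.47. The direction of *LOX* held under each of the 3 scalings in all 3 comparisons. Another pseudocount cannot change a direction, since the same amount is added to both values. The *LOX* ratio of high to low dose stayed between 5.49 and 6.07, and median ratio and sum scaling removed only -0.19 and -0.39 log2 units from it. Each scaling rests on genes selected by the authors, and median ratio and sum scaling move all genes of a list by 1 amount, so they are no check of a single gene. Without XLOC loci, or without genes listed at 0, every rank stayed within 10 percentage points. Among only the genes on every list of the tissue, 38.8% of genes were below *LOX* in mock and 63.6% in high-dose radicles, and 0% were below *AOS* in each seed list.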
